A study of Mus musculus with 64 samples.

Results

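The transcriptional coactivator β-catenin was mapped by ChIP-seq in mouse cells with high and low levels of SOX2, and the 674 genomic sites described here ranked among the strongest β-catenin peaks in cells of low SOX2 level and not in cells of high SOX2 level. They were selected on the β-catenin peak lists themselves, from 12 libraries. The 3423 peaks of highest fold enrichment over the local background were kept in each list, which is the length of the shortest list. Peaks that shared at least 1 bp across lists were joined, giving 12607 β-catenin sites in all. A site was taken as a low-SOX2 site where at least 5 of the 6 low-SOX2 lists and at most 1 of the 6 high-SOX2 lists held a peak, a rule met by 5.35% of sites. Differences in β-catenin between low and high SOX2 at these sites therefore follow from the choice and are given as a description.

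The low-SOX2 libraries came from CEpiLC and SOX2-OFF cells, the high-SOX2 libraries from naive ESC and SOX2-ON cells, with 3 biological replicates per condition. Naive ESC were wild-type HM1 embryonic stem cells (129 strain) kept in 2i, N2B27 medium with the GSK3 inhibitor CHIR99021 and the MEK inhibitor PD0325901. CEpiLC, caudal epiblast-like cells, were the same wild-type cells grown in N2B27 with bFGF and LGK974, a block to WNT secretion, and exposed to CHIR99021 in addition for the last of 3 days (72 h). SOX2-OFF and SOX2-ON cells came from SOX2 TetON, an HM1-derived line of genotype Sox2-/- that was picked as a clone and carries a doxycycline-driven Sox2 cDNA at the Hprt locus. Both were taken through the CEpiLC medium. Doxycycline was withdrawn for SOX2-OFF and kept at 1 µg/ml for SOX2-ON. All 4 conditions contained CHIR99021. SOX2 level is tied to medium in the wild-type pair and to doxycycline in the TetON pair. Between SOX2-OFF and CEpiLC, the cell line and the source of SOX2 cannot be told apart. SOX2 and the TCF/LEF family members LEF1, TCF7L1 and TCF7L2 were immunoprecipitated from the same conditions, giving 60 libraries of 5 targets. The lists hold from 1628 to 991719 peaks and no read counts, so the depth of each library is unknown. The shortest list of β-catenin, LEF1, TCF7L1 and TCF7L2 was in each case that of a low-SOX2 library, and the part of list length in the results was not tested. Expression was not measured in these libraries.

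β-catenin carries the canonical WNT signal. It has no DNA-binding domain of its own and is held on chromatin by TCF/LEF proteins, of which TCF7L1 is best known as a repressor and LEF1 as an activator. In the posterior epiblast, WNT signalling drives the primitive streak programme, with T (Brachyury), Tbx6, Msgn1 and Eomes among its transcription factors. SOX2 is an HMG-box factor of pluripotent and neural cells, and its HMG box and that of the TCF/LEF proteins recognise related sequences.

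The strongest low-SOX2 sites of 5 developmental gene lists are shown first, to show whether and where the TCF/LEF sequence lies around the summit. Each is named by its nearest gene, and a WNT response of these genes was not tested here. Each run is the strongest summit with 100 bp on either side, on the forward strand of GRCm38 (mm10), read from the RefSeq genome. Capitals mark matches to the TCF sequence CTTTGAA or CTTTGAT on either strand. The Fgf8 and Rarg windows held no match.
Msgn1, chr12:11209025-11209225: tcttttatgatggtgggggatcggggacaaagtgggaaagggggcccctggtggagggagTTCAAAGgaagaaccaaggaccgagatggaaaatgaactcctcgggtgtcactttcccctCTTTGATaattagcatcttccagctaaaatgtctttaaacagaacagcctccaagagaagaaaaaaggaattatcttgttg
Hoxb1, chr11:96365458-96365658: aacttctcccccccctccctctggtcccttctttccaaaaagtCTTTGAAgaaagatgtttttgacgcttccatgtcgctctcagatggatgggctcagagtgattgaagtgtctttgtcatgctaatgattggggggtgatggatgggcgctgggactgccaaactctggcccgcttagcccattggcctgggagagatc
Wnt10a, chr1:74797537-74797737: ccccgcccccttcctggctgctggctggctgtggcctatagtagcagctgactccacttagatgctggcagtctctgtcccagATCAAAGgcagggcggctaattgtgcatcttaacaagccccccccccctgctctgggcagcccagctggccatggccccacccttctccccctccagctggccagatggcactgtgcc
Fgf8, chr19:45722925-45723125: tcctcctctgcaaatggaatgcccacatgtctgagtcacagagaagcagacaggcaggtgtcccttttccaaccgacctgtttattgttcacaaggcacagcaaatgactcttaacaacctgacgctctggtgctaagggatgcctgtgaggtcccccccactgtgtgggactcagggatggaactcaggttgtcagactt
Rarg, chr15:102243873-102244073: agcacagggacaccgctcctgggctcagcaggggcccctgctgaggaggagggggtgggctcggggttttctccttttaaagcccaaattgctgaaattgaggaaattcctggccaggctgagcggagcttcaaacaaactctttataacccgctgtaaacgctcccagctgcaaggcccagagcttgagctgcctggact
The Msgn1 site lay at the promoter, 153 bp upstream of the start of this regulator of presomitic mesoderm, and held 2 TCF matches. The Hoxb1 site was also at a promoter, with its summit 194 bp upstream of the start of this Hox gene, which lies at the 3′ end of its cluster. The Wnt10a site was in an intron of that WNT ligand gene, and the Rarg site in an intron of the gene for a retinoic acid receptor. The Fgf8 site was intergenic, 19659 bp from the start of this FGF ligand gene.

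β-catenin at the 674 sites was enriched over the local background in both low-SOX2 conditions. The median fold over the sites with a peak was 15.8, 17.0 and 16.1 in the 3 CEpiLC libraries. It was 20.2, 6.84 and 24.0 in SOX2-OFF replicates 1, 2 and 3. SOX2-OFF replicate 2 stood apart, with 3423 peaks in its whole list against 10930 in the next shortest, and only 441 of the 674 sites carried a peak in it. In the naive ESC libraries the median fold at sites with a peak was 8.30, 5.50 and 7.13, and in the SOX2-ON libraries 7.45, 5.78 and 8.61. All 6 low-SOX2 medians apart from that of SOX2-OFF replicate 2 were above all 6 high-SOX2 medians.

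**Figure D1:**
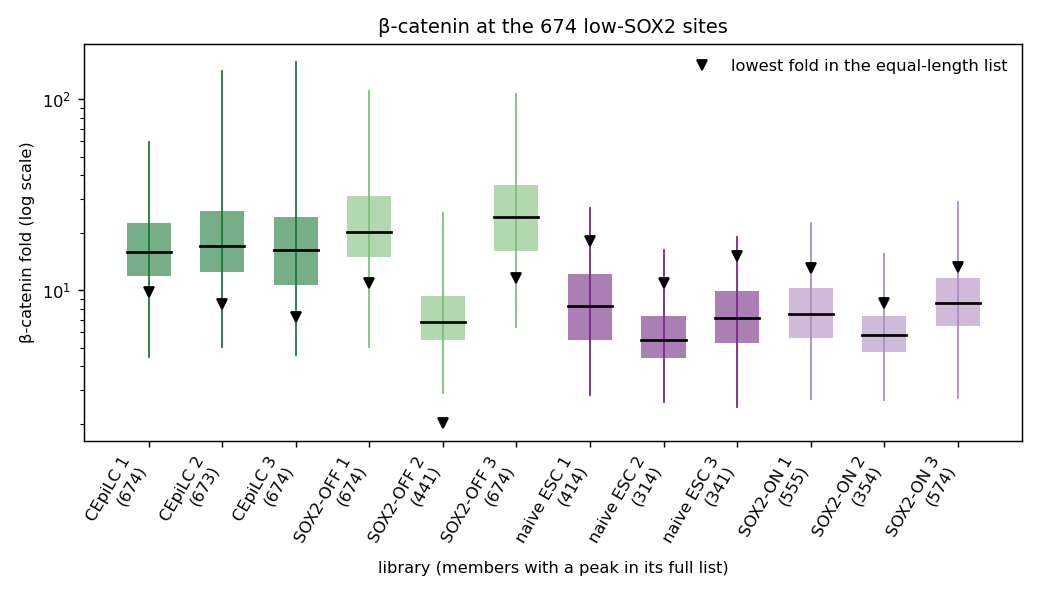
β-catenin fold over the local background (log axis) at the low-SOX2 sites in each of the 12 libraries, over the sites with a peak in the whole list (number in brackets). Boxes span the quartiles, black lines are medians, thin lines run from the lowest to the highest value, and triangles mark the lowest fold kept in each list of 3423 peaks. The naive ESC and SOX2-ON boxes lie below their triangles, and SOX2-OFF replicate 2 has the lowest triangle, at a fold of 2.01.

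β-catenin was seldom without any peak at these sites in high SOX2. Only 22 sites had no peak in the whole list of any high-SOX2 library, while 149 had one in all 6 and 493 in at least 3. In naive ESC replicates 1, 2 and 3, 414, 314 and 341 of the sites carried a peak somewhere in the whole list, and in SOX2-ON replicates 555, 354 and 574 did. The equal-length lists ended at a fold of 7.21 to 17.98, apart from the 2.01 of SOX2-OFF replicate 2, so what counted as a peak differed between libraries. Every low-SOX2 fold exceeded every high-SOX2 fold at 77 sites with a peak in all 6 low-SOX2 lists, and at 431 sites once SOX2-OFF replicate 2 was set aside.

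Among the sites, 310 had a peak in all 6 low-SOX2 lists and 364 in 5, of which 233 lacked it only in SOX2-OFF replicate 2. No high-SOX2 list held a peak at 491 sites, and 1 list did at 183, in SOX2-ON for 156 and in naive ESC for 27. The 188 sites found in all 6 low and no high lists had a median low-SOX2 fold of 20.4. The 61 sites just inside the rule, with 5 low and 1 high lists, had a median fold of 12.8 in low and 8.74 in high SOX2. Just outside it, 356 sites with 4 low lists had medians of 11.2 and 6.50, and 190 sites with 2 high lists had medians of 17.4 and 10.9.

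The 10 sites of highest median β-catenin fold in low SOX2 included some far from any protein-coding start. The highest lay 1352022 bp from the start of Pcdh18, a protocadherin gene, in intergenic DNA. Its fold was 51.6, 107 and 115 in CEpiLC, 80.3, 25.2 and 105 in SOX2-OFF, 5.28, 7.62 and 7.13 in naive ESC, and 16.3, 7.49 and 12.1 in SOX2-ON. All low-SOX2 values were above all high-SOX2 values there, SOX2-OFF replicate 2 included. The Basp1 site, 562197 bp from its start, followed with a median of 79.0, then those nearest Stim2 at 76.4, Olfr1028 at 74.3, Cypt12 at 71.8, Cnbd1 at 69.3, Chrna7 at 68.2, Chst7 at 67.3, Slitrk2 at 63.6 and Actl6a at 60.4.

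The other proteins were measured in libraries that the rule did not use. In each library of a target the same number of strongest peaks was kept, 20000 for SOX2, 4443 for LEF1, 1628 for TCF7L1 and 4134 for TCF7L2, and these equal-length lists are meant unless whole lists are named. LEF1 was present at most low-SOX2 sites in CEpiLC, at 78.9% ± 8.05 of them (SD, n = 3 libraries), against 23.9% of all β-catenin sites. In SOX2-OFF it was present at 36.6% ± 16.3, in naive ESC at 4.10% ± 3.67 and in SOX2-ON at 4.15% ± 1.27. The libraries of low SOX2 ranged from 21.4% to 83.7% and those of high SOX2 from 0.742% to 8.01%, with no overlap. Over all β-catenin sites, LEF1 stood at 9.19% in SOX2-OFF, 9.84% in naive ESC and 13.2% in SOX2-ON.

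TCF7L1 peaks lay at 39.0% ± 17.97 of the low-SOX2 sites in CEpiLC and at 35.2% ± 6.95 in SOX2-OFF. They lay at 0.544% ± 0.309 in naive ESC and 1.78% ± 1.07 in SOX2-ON, although 12.8% and 9.97% of all β-catenin sites held one in those conditions. TCF7L2 was present at 34.0% ± 4.90 in CEpiLC, 15.03% ± 3.86 in SOX2-OFF, 3.17% ± 0.701 in naive ESC and 3.86% ± 1.07 in SOX2-ON. For both proteins, every low-SOX2 library was above every high-SOX2 library in the equal-length lists. At the 332 sites with β-catenin in all 12 lists, the CEpiLC means were higher, at 78.9% for TCF7L1 and 68.0% for TCF7L2. In the whole lists the low and high ranges overlapped for LEF1 (36.1% to 97.2% against 11.7% to 70.6%), TCF7L1 (18.4% to 96.6% against 4.90% to 85.3%) and TCF7L2 (18.8% to 87.4% against 8.75% to 40.9%), where the lengths of the lists differ. Of the libraries, LEF1 naive ESC replicate 1 (0.896% of all β-catenin sites), TCF7L1 CEpiLC replicate 1 (6.71%) and TCF7L1 SOX2-ON replicate 1 (4.43%) stood apart from their group. Without these libraries, the low-SOX2 sites with LEF1 in naive ESC were 8.01% and 3.56%, those with TCF7L1 in CEpiLC 46.9% and 51.6%, and those with TCF7L1 in SOX2-ON 2.08% and 2.67%.

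SOX2 itself followed the same direction at these sites. Its peaks lay at 61.5% ± 13.5 of the low-SOX2 sites in CEpiLC and at 52.8% ± 24.6 in SOX2-OFF, but at 11.6% ± 2.36 in naive ESC and 13.3% ± 1.40 in SOX2-ON. The 6 low-SOX2 libraries ranged from 30.6% to 79.2% and the 6 high-SOX2 libraries from 8.90% to 14.8%. The same was seen in the whole lists, at 62.0% to 96.1% against 24.6% to 61.3%. Over all β-catenin sites the shares were 37.8%, 27.6%, 37.0% and 36.7% in the same order of conditions. At the 332 sites with β-catenin in all 12 lists they were 93.3%, 88.1%, 78.3% and 76.0%. At the 410 sites of the reverse rule, with β-catenin in high SOX2 only, SOX2 peaks lay at 84.4% to 97.3% in the high-SOX2 libraries and 26.8% to 62.7% in the low. Keeping the same number of peaks in each library removes any general change in SOX2 binding between conditions, so these shares are of rank and not of amount of SOX2.

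**Figure D2:**
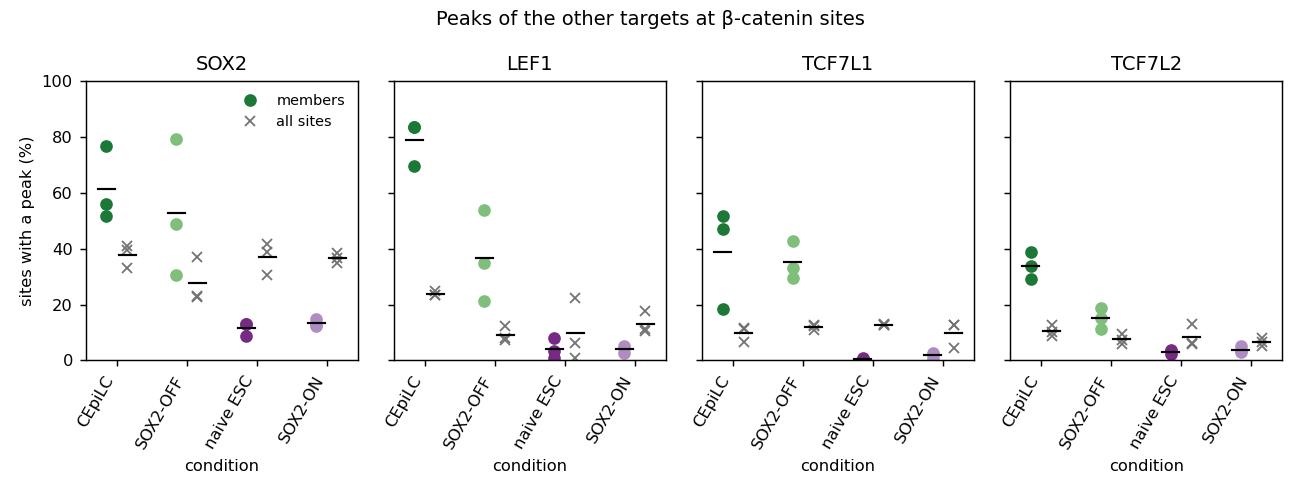
Share of β-catenin sites with a peak of SOX2, LEF1, TCF7L1 or TCF7L2 (percent) in each library, by condition. Circles are the 674 low-SOX2 sites, crosses all 12607 sites, and bars the mean of 3 libraries. The circles of CEpiLC and SOX2-OFF lie above those of naive ESC and SOX2-ON for each protein, while the crosses of the low-SOX2 and high-SOX2 libraries overlap in range for each protein.

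Site by site, each protein was counted as following β-catenin where at least 5 low-SOX2 and at most 1 high-SOX2 lists held its peak. LEF1 did so at 164 of the 674 sites, where 3.01% of all 12607 sites did. SOX2 did so at 132 (3.51% of all sites), TCF7L1 at 78 (2.04%) and TCF7L2 at 18 (0.880%). None of the 674 sites met the reverse rule for any of these proteins. Over all 12607 sites it was met at 706 for SOX2, 186 for TCF7L1, 48 for TCF7L2 and 37 for LEF1. For LEF1 and TCF7L2 so few of all sites met it that none among 674 is near that share. Low and high libraries were also exchanged within each cell line in an exact permutation test of the number of low-SOX2 lists with a peak, whose smallest p is 0.005. Sites that passed an unadjusted two-sided p of 0.05 with more low-SOX2 lists numbered 137 of the 645 that could be tested for LEF1, where 3.99% of all sites tested did. They numbered 115 of 624 for SOX2 (3.59% of all), 72 of 524 for TCF7L1 (4.10%) and 15 of 440 for TCF7L2 (1.86%). No single site passed 0.05 after Benjamini-Hochberg adjustment over all sites, where the lowest adjusted p of this exact test was 0.166 for SOX2, 0.466 for LEF1, 0.220 for TCF7L1 and 0.612 for TCF7L2.

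At 394 sites none of the other proteins followed β-catenin by this count, at 195 1 did, and at 63, 17 and 5 sites 2, 3 and all 4 did. Over all 12607 sites, 93.1% had none, 5.08% had 1, 1.15% had 2, 0.476% had 3 and 0.159% had 4. The 5 sites where all 4 followed were nearest Olfr1028, Hnf4g, Pkdcc, Stim2 and Rpl10-ps3. SOX2, LEF1 and TCF7L1 followed together at 18 sites, which included the Pcdh18 site and a site in an intron of T2 upstream of T. LEF1 and TCF7L1 shared 42 sites, SOX2 and LEF1 47, and SOX2 and TCF7L1 29. A TCF/LEF peak was present in at least 1 low-SOX2 list at 667 sites. At 1 site, 211001 bp from Mme, no low-SOX2 list held a peak of any of the other proteins. LEF1 was absent from all 6 low-SOX2 lists at 33 sites, and at 7999 of all 12607. SOX2 was absent from all 6 low-SOX2 lists at 40 sites and present in all 6 at 102. Over all 12607 sites it was absent from all 6 at 4883. The counts for named proteins following together, any TCF/LEF peak and SOX2 in all 6 lists were not made over all sites. They have no background here.

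In low SOX2, the summits of the other proteins lay close to that of β-catenin. In the low-SOX2 libraries the median distance from the β-catenin summit was 20 to 26 bp for LEF1, with 75% to 85.4% of pairs within 50 bp. It was 19 to 35.5 bp for TCF7L1, 21 to 30 bp for TCF7L2 and 30.5 to 51.5 bp for SOX2, for which 48.5% to 71.0% lay within 50 bp. Over all β-catenin sites the medians were 25 to 29 bp for LEF1 and 33 to 43 bp for SOX2. The fewer SOX2 peaks at these sites in the high-SOX2 libraries, 60 to 100 in each, lay farther from this summit, at medians of 87 to 130 bp with 27.3% to 40% within 50 bp. Distances to a β-catenin summit of the high-SOX2 libraries themselves were not measured. From the same summit, high-SOX2 medians were 10 to 35 bp for TCF7L1, over 2 to 18 sites. They were 22 to 43.5 bp for TCF7L2 and 32.5 to 75 bp for LEF1.

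The primitive streak and mesoderm genes held 8 low-SOX2 sites, 1.19% of the 674 against 0.325% of all β-catenin sites. They were nearest to 6 of the 27 genes of that list, T, Tbx6, Msgn1, Eomes, Mixl1 and Hand1. None of the 410 high-SOX2 sites and none of the 332 sites with β-catenin in all 12 lists was nearest to a gene of this list. With only 0.325% of all sites at these genes, none among 410 or 332 is near that share.

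T, the streak transcription factor Brachyury, had 4 low-SOX2 sites upstream of its start, at 58160, 45203, 37910 and 25317 bp. All lay in introns of T2, the neighbouring gene, and 3 were assigned to T2 as the nearer start. The site at 45203 bp (chr17:8388767-8389981) had β-catenin folds of 38.5, 33.4 and 30.5 in CEpiLC and 26.8 and 38.3 in SOX2-OFF replicates 1 and 3, with no peak in replicate 2. In naive ESC its folds were 4.69 and 6.61 in replicates 1 and 2 with none in replicate 3, and in SOX2-ON 11.2, 3.28 and 11.4. Among the libraries with a peak, low and high folds did not overlap. SOX2 at this site had folds of 21.5, 14.0 and 23.7 in CEpiLC and 7.63, 4.88 and 42.2 in SOX2-OFF, against 3.65 and 4.61 in naive ESC replicates 1 and 3 and 4.01 and 4.47 in SOX2-ON replicates 1 and 3. SOX2, LEF1 and TCF7L1 each had a peak here in 5 low-SOX2 lists and no high-SOX2 list.

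The other sites upstream of T differed among themselves. At 37910 bp, SOX2 had a peak in all 6 low-SOX2 and no high-SOX2 list (exact permutation p = 0.005, unadjusted, n = 3 libraries per condition), and β-catenin reached 36.9 and 39.0 in SOX2-OFF replicates 1 and 3, with 6.44 in replicate 2, against 19.3, 24.8 and 23.1 in CEpiLC. At 25317 bp, β-catenin folds of 23.2, 19.8 and 16.6 in CEpiLC stood beside 10.996 and 7.38 in naive ESC and 9.90, 7.96 and 15.2 in SOX2-ON, and SOX2-OFF replicate 2 fell among them at 8.02. At 58160 bp, low and high overlapped, with 7.59, 13.2 and 8.28 in CEpiLC and 25.9 in SOX2-ON replicate 3. SOX2 had a peak in 5 or 6 low-SOX2 lists and no high-SOX2 list at all 4 sites. LEF1 was in 5 low-SOX2 lists at 45203 bp, 4 at 37910 bp, 4 at 25317 bp and 1 at 58160 bp.

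Msgn1 had another low-SOX2 site 23573 bp upstream, with no peak in any whole high-SOX2 list. At the Msgn1 promoter the folds were 29.5, 30.9 and 45.9 in CEpiLC and 27.4 and 33.1 in SOX2-OFF replicates 1 and 3. High-SOX2 values were 4.15 in naive ESC replicate 1, and 2.79 and 3.54 in SOX2-ON replicates 1 and 3, with no peak elsewhere. The Tbx6 site, in an exon 3871 bp from the start of this paraxial mesoderm T-box gene, had folds of 20.6, 33.0 and 31.5 in CEpiLC and 30.1 and 25.7 in SOX2-OFF, and a single high-SOX2 peak of 5.20 in SOX2-ON replicate 1. SOX2-OFF replicate 2 had no β-catenin peak at the Msgn1 promoter or at Tbx6. Among the libraries with a peak, low and high folds did not overlap at these Msgn1 and Tbx6 sites. LEF1 had a peak there in 4 low-SOX2 lists and no high-SOX2 list.

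Eomes, a T-box factor of early mesendoderm, had sites 9861 and 6725 bp upstream. At 9861 bp no equal-length SOX2 list of any condition held a peak, and β-catenin was 14.4, 10.2 and 8.65 in CEpiLC and 34.6, 6.40 and 44.2 in SOX2-OFF. Naive ESC folds of 9.75 and 8.96 and SOX2-ON folds of 3.26, 8.20 and 16.7 overlapped those of low SOX2. The site 10533 bp upstream of Mixl1, a homeobox gene of the streak, had folds of 20.7, 21.9 and 29.1 in CEpiLC and no peak in SOX2-ON. The site 4520 bp from Hand1, a factor of extraembryonic and lateral mesoderm, had folds of 28.1, 34.0 and 43.3 in CEpiLC against 7.12, 4.75 and 8.18 in SOX2-ON.

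**Figure D3:**
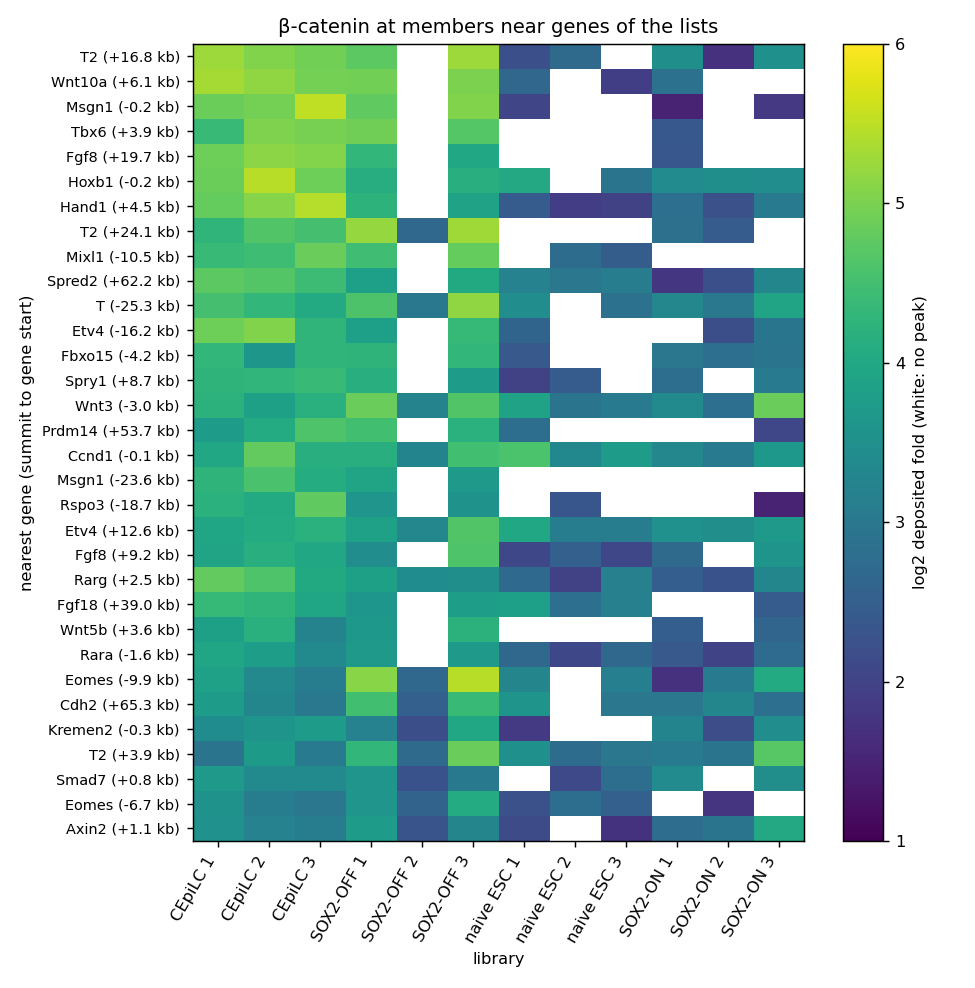
log2 of the deposited β-catenin fold at low-SOX2 sites nearest genes of the developmental lists and at T2, by library. Rows name the nearest gene with the distance from its start to the summit in kb, ordered by median low-SOX2 fold, and white cells had no peak in the whole list. The 3 CEpiLC columns and SOX2-OFF columns 1 and 3 are filled throughout, while the upstream Msgn1 row is white in all 6 high-SOX2 columns.

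FGF pathway genes held 7 low-SOX2 sites (1.04% against 0.428% of all sites), at the ligands Fgf8 and Fgf18, the inhibitors Spry1 and Spred2 and the transcription factor Etv4, 5 of the 20 genes in the list. The Fgf8 site at 19659 bp had folds of 29.6, 35.2 and 33.6 in CEpiLC and 19.8 and 15.8 in SOX2-OFF, and 1 high-SOX2 peak of 5.12. SOX2 had a peak there in 5 low-SOX2 and no high-SOX2 lists. WNT ligand and receptor genes held 4 sites (0.593% against 0.373%), at Wnt3, Wnt5b and Wnt10a and at Rspo3, a secreted enhancer of WNT signalling. Wnt10a had folds of 39.9, 36.0 and 30.9 in CEpiLC against 7.42 or less in high SOX2. At Wnt3, the SOX2-ON replicate 3 fold of 29.0 was as high as the SOX2-OFF replicate 1 fold of 29.1.

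WNT feedback and target genes did not stand out. They held 3 sites, 0.445% of the low-SOX2 sites against 0.603% of all sites and 1.81% of the sites with β-catenin in all 12 lists. These were at Axin2 and Kremen2, negative regulators of the pathway, and at the cell-cycle gene Ccnd1, 3 of the 23 genes. Axin2 folds of 11.6, 9.24 and 8.57 in CEpiLC overlapped the 6.89, 7.64 and 16.3 of SOX2-ON, and no equal-length SOX2 list held a peak there. At Ccnd1, naive ESC replicate 1 reached 23.9 against 15.9, 27.8 and 17.8 in CEpiLC, and LEF1 had a peak in 4 high-SOX2 lists.

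The posterior identity list, which takes in the Cdx genes, Hox cofactors and Hox genes of all 4 clusters, anterior ones included, held 1 site among its 53 genes, at the promoter of the anterior gene Hoxb1 (0.148% against 0.563% of all sites and 2.11% of the sites in all 12 lists). Its β-catenin folds were 29.6, 44.3 and 29.9 in CEpiLC, 17.4 and 17.5 in SOX2-OFF, and between 7.57 and 16.2 in high SOX2. SOX2 folds there were 34.8, 79.3 and 89.5 in CEpiLC and 27.3, 31.1 and 47.8 in SOX2-OFF, against 3.40 to 8.10 over the high-SOX2 libraries. SOX2 was thus higher in each low-SOX2 library than in each high-SOX2 library at Hoxb1, with a peak in 6 low-SOX2 and 2 high-SOX2 equal-length lists.

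The retinoic acid genes held 2 of their 5 β-catenin sites among the low-SOX2 sites, at the receptors Rara and Rarg. At Rarg, SOX2 had a peak in all 6 low-SOX2 and all 6 high-SOX2 lists, and 22 of the low-SOX2 sites had SOX2 in at least 5 lists on both sides, as did 1145 of all 12607 sites. Pluripotency genes held 2 sites, at Prdm14 and Fbxo15, 0.297% against 0.468% of all sites and 0.976% of the high-SOX2 sites. Single sites were nearest the cadherin gene Cdh2 and Smad7, an inhibitor of Nodal and BMP signalling, and none was nearest a gene of the Notch and segmentation clock list. All 11 lists together took in 30 of the low-SOX2 sites, 4.45% against 3.69% of all β-catenin sites.

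Low-SOX2 sites were mostly distal, as were all β-catenin sites. Promoters, within 1000 bp of a protein-coding start, held 45 (6.68%, 95% Wilson interval 5.03 to 8.82, against 6.27% of all sites). Introns held 196 (29.1% against 38.4%), exons 13, and 420 were intergenic (62.3% against 53.4%). The median distance to a start was 31634.5 bp against 33679 bp, and 186 sites were over 100 kb away. The sites within 100 kb of a start were spread over 466 nearest genes, of which 21 had at least 2, and 63 sites lay within 50 kb of another. The summit fell in a repeat of the reference at 187 sites (27.7%), compared with 20.2% of all sites, 20.7% of high-SOX2 sites and 13.3% of the sites in all 12 lists. Whether reads in repeats had a part in these differences was not tested. GC content was 49.95% ± 7.46 (SD over sites), compared with 44.6% at high-SOX2 sites and 48.0% at all sites. Windows 5000 bp from the low-SOX2 sites had 43.1%. The part of base composition in the sequence shares below was not tested.

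The TCF sequence was the most frequent of those searched. It was found within 100 bp of the summit on either strand at 62.2% of low-SOX2 sites (95% Wilson interval 58.4 to 65.7, counting error only), against 43.5% of all sites, 38.3% of high-SOX2 sites, 72.3% of sites in all 12 lists and 9.20% of windows 5000 bp away. No match was found at 255 sites, 1 at 334, 2 at 78 and 3 or more at 7. Matches gathered at the summit, with 14.99 and 16.8 per 100 sites in the 25 bp on its left and right, against 10.6 and 10.4 over all sites. Among the 164 sites where LEF1 followed β-catenin, 75.6% held a TCF match, and among the 33 with LEF1 in no low-SOX2 list, 24.2% did.

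The SOX sequence, CATTGT or CTTTGT, was close in frequency to that of DNA nearby, which had a lower GC content. It was present at 25.7% of the sites (22.5 to 29.1), 24.0% of the windows 5000 bp away, 44.8% of all sites and 70.5% of high-SOX2 sites. In the 25 bp to the left and right of the summit there were 3.12 and 3.41 matches per 100 sites, against 9.42 and 10.4 over all sites. Where SOX2 followed β-catenin, 29.5% of the 132 sites held a SOX match and 44.7% a TCF match. Where it did not, 24.7% held a SOX and 66.4% a TCF match. Of the 40 sites with SOX2 in no low-SOX2 list, 82.5% held a TCF match.

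The T sequence GGTGTG, the core of the T-box site, was present at 23.4% (20.4 to 26.8), against 15.7% of all sites, 11.95% of high-SOX2 sites and 11.7% of windows 5000 bp away. It also centred on the summit, with 4.90 and 5.93 matches per 100 sites in the 25 bp on its left and right, where all sites had 2.33 and 2.54. It was found at 18.1% of the 419 sites with a TCF match and at 32.2% of the 255 without. It was found at 34.1% of the sites where SOX2 followed β-catenin and at 20.8% of the others. The 76 sites with both TCF and T matches were 11.3% of the low-SOX2 sites and 6.47% of all sites.

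**Figure D4:**
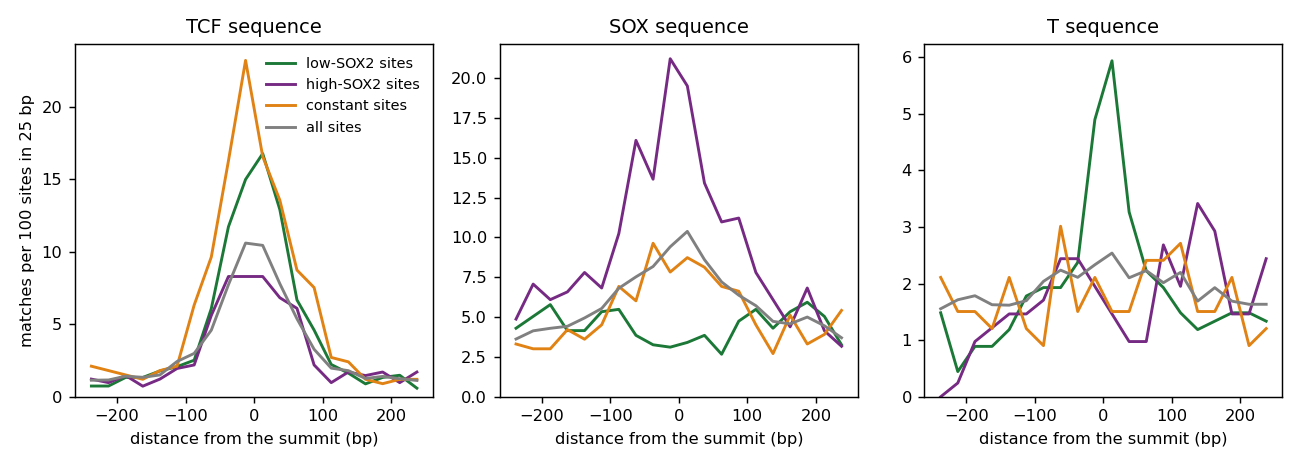
Matches to the TCF, SOX and T sequences per 100 sites in steps of 25 bp, by distance from the β-catenin summit (bp), for low-SOX2 sites, high-SOX2 sites, sites in all 12 lists (constant) and all sites. The low-SOX2 line peaks at the summit for TCF, at 16.8, and for T, at 5.93. For SOX it does not peak there, with 3.12 and 3.41 beside the summit and mostly higher values farther out. The high-SOX2 line for SOX does peak at the summit.

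The GATA sequence AGATAA was present at 21.2% of low-SOX2 sites (18.3 to 24.5) and 14.96% of all sites. The CDX sequence, TTTATGG or TTTATTG, was present at 3.56% (2.40 to 5.24) and 6.58%, and the FOXH1 sequence, TGTGGATT or TGTGTATT, at 1.48% (0.808 to 2.71) and 2.25%. The octamer ATTTGCAT of the OCT factors was present at 2.52% (1.58 to 4.002), against 4.45% of all sites and 6.83% of high-SOX2 sites. Matches of different sequences overlapped at 3 sites for CDX and GATA and at 1 each for SOX and FOXH1, TCF and FOXH1, and TCF and T. A match describes letters in the window and not a bound site, and 104 sites held no TCF, T or SOX match.

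SOX2-OFF and CEpiLC, which the rule treated alike, were compared with limma on log2 fold at sites with a peak in all 6 whole lists, after centring each library on its median. The rule had used the same folds to ask for strong peaks in both conditions, which limits how far they can differ at these sites, so the counts describe the sites and are not independent of their choice. Of the 440 low-SOX2 sites in this test, β-catenin was higher in SOX2-OFF at 11 (5.08% of all 1989 sites tested were) and lower at 37 (7.59% were), at an adjusted p under 0.05. The median difference was -0.27 log2 over the low-SOX2 sites and -0.08 over all sites tested. The lowest was at the site 62113 bp upstream of Slc1a4, an amino acid transporter gene, with folds of 31.1, 41.0 and 43.5 in CEpiLC and 21.4, 3.65 and 15.8 in SOX2-OFF (-2.02 ± 0.35 SE, adjusted p = 0.00167). The site 1536 bp inside Fscn1, an actin-bundling protein gene, was also lower in SOX2-OFF (-1.91 ± 0.32, adjusted p = 0.00167), as were those nearest Pkdcc, Avpr1b and Dnajb6. The highest, 514808 bp from Mgmt, a DNA repair gene, had 5.90, 8.99 and 7.36 in CEpiLC and 35.6, 9.25 and 43.7 in SOX2-OFF (1.54 ± 0.33, adjusted p = 0.00449). Sites nearest Akap2, Tdrd3, Adam29 and Cmtm6 were next among those higher in SOX2-OFF. At an unadjusted limma p under 0.05, 33 of the 440 sites were higher and 91 lower. The share of all sites tested at this unadjusted threshold was not counted, so these counts cannot be set against a background.

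The counts moved with SOX2-OFF replicate 2 and the sites it allowed to be tested. With replicate 2 of both conditions left out and the same 440 sites kept, 10 were higher and 20 lower, with a median of -0.20 log2. Of all 1989 sites tested, 61 were higher and 99 lower in that setting, with a median of -0.15 log2. Without SOX2-OFF replicate 2 alone and over sites with a peak in the other 5 lists, 673 sites could be tested. β-catenin was then higher in SOX2-OFF at 56 (8.55% of all 4221 sites tested) and lower at 38 (10.7%), with a median of 0.06 log2 over the low-SOX2 sites and -0.05 over all sites. All 11 higher calls and 15 of the 37 lower calls recurred, none with the opposite direction, and the 10 sites just named from the comparison of all 6 lists kept theirs. This setting was chosen after seeing the data and left 2 SOX2-OFF libraries. In it the Eomes site 9861 bp upstream was higher in SOX2-OFF (1.51 log2 ± 0.34 SE, limma adjusted p = 0.00469). The replicate left out had a deposited fold there below those of CEpiLC, before any centring. Its median log2 fold over the sites tested in all 6 lists was also the lowest, at 2.96 against 3.64 to 3.94 in CEpiLC. Its raw fold at this site therefore does not give a direction on the centred scale. The Hand1 site was lower in SOX2-OFF (-1.39 ± 0.37, adjusted p = 0.0123), as was the Fgf8 site at 19659 bp (-1.22 ± 0.35, adjusted p = 0.0190). The Msgn1 promoter site (-0.54 ± 0.36, adjusted p = 0.306), the upstream Msgn1 site (-0.83 ± 0.34, adjusted p = 0.0940) and the Tbx6 site (-0.33 ± 0.36, adjusted p = 0.553) did not pass. With no centring of the libraries, 0 sites passed in either direction in all 6 lists.

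**Figure D5:**
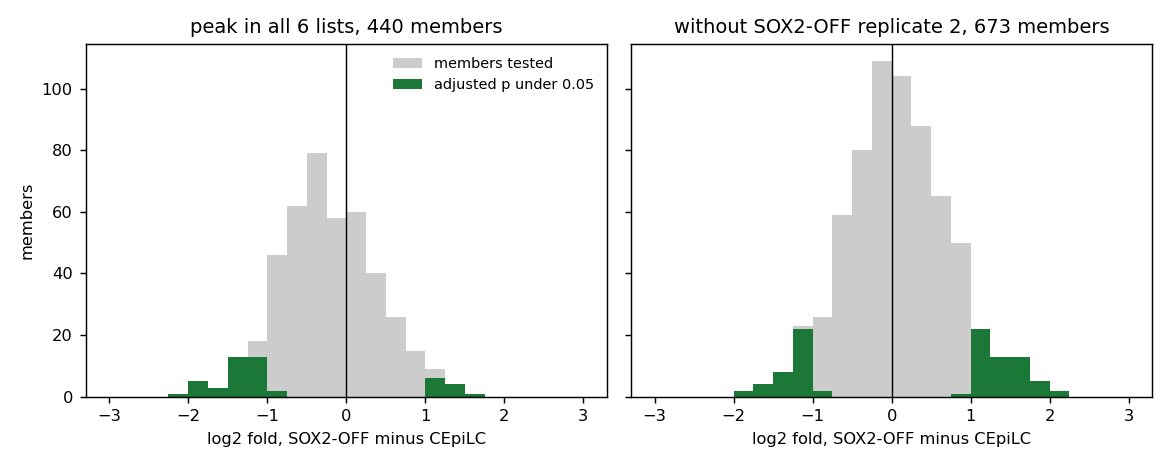
Histograms of the difference in log2 β-catenin fold, SOX2-OFF minus CEpiLC, over the low-SOX2 sites with a peak in all 6 whole lists (left) and without SOX2-OFF replicate 2 (right). Grey bars are all sites tested and green bars those with a limma adjusted p under 0.05, 11 higher and 37 lower on the left and 56 and 38 on the right.

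LEF1 and SOX2 differed between SOX2-OFF and CEpiLC at few of the sites. For LEF1, 152 sites had a peak in all 6 lists, and 2 were higher in SOX2-OFF (0.949% of all 843 sites tested), nearest Gpatch2 and Vmn1r41, and 1 was lower (1.07%), nearest Pkdcc. These LEF1 calls fell to 0 in both directions with no centring, with centring on sites in all 12 lists, and without replicate 1 or replicate 3. For SOX2, 4 of 237 were higher (3.61% of all 2325 tested), those nearest Scly, Cbx3 and Plekha1 among them, and 6 were lower (3.18%), nearest Hs3st3b1, Unc5a, Adh6a, Pax5, Tmem222 and Dnajb6. Of these SOX2 calls, the higher ones fell to 0 with no centring and without any 1 replicate number, and the lower ones to 0 without replicate 1 or 3 and 2 without replicate 2. The Dnajb6 site was lower in SOX2-OFF for both β-catenin and SOX2, and the Pkdcc site for both β-catenin and LEF1. By presence rather than fold, LEF1 was in all 3 CEpiLC lists at 412 sites and in all 3 SOX2-OFF lists at 70, and SOX2 at 268 and 144. Over all β-catenin sites the mean share also fell from CEpiLC to SOX2-OFF, from 23.9% to 9.19% for LEF1 and from 37.8% to 27.6% for SOX2, and a difference in the fall was not tested. The shares at the low-SOX2 sites moved with the libraries, from 30.6% to 79.2% of the sites for SOX2 among SOX2-OFF replicates.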

How the data were processed

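ChIP-seq peak lists of 60 immunoprecipitated libraries were analysed, with 5 targets, 4 conditions and 3 biological replicates each. The authors trimmed and aligned 76 bp single-end reads with BWA and called narrow peaks library by library with MACS2, with mm10 as the build in the submitters' processing notes, and replicates were not pooled. The deposited lists give for each peak a fold of signal over the local background, −log10 p-value and q-value, a summit, and a score that the authors' caller makes from the q-value. No read counts were used here, so depth is unknown and its limit on precision cannot be given. The 4 input samples were not used here. The input paired with each library is not given in the sources used here.

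The members and gene lists were chosen with earlier results of these data known. Every library of a target was cut to the same number of strongest peaks by fold. A site was occupied by another target where a peak shared at least 1 bp with it. Single sites were tested by exact permutation of presence within cell lines (400 assignments, two-sided) with Benjamini-Hochberg adjustment over all sites tested, a site being tested where at least 1 and at most 11 lists of the target held a peak. log2 folds of SOX2-OFF and CEpiLC were compared with limma 3.58.1 (R 4.3.3) over all sites with a peak in the 6 whole lists, after subtracting each library's median, and not TCF7L1 or TCF7L2, for which no test was planned. Genes were the nearest protein-coding start in GENCODE release M21, named for the lists at up to 100 kb. Sequences were searched as exact letters on both strands of the RefSeq GRCm38 genome. The scripts were tested on simulated data. Named sites were, for each gene list, the 3 of highest median β-catenin fold in low SOX2, the 10 highest of all, the 5 largest limma differences per direction, and the sites where SOX2, LEF1 and TCF7L1 all followed β-catenin. The other sites at listed genes, those upstream of T, the Mme site and those called for LEF1 or SOX2 by limma were added after their values were seen.

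Replicate numbers are shared by the conditions in the labels. Deviations of same-numbered libraries from their group means were weakly correlated, with medians of 0.00640 to 0.0223 over the 5 targets and a highest value of 0.113. Between libraries of different number the medians were -0.0145 to -0.0019, below the same-number median for each target. Alternatives were other list lengths, ranking by p-value, stricter presence rules, other centring, other windows, a replicate block and leaving out replicates. The replicates are stated to be biological. Some sites and sequences that the naming rule selects are not reported here.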

Additional observations from a re-analysis of the deposited data

How the results depend on the processing

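Of 109 alternative values for 23 results, 37 stayed within 1.5 times the reported count or inside its interval and 72 moved. These counts and shares have no sign. For β-catenin in SOX2-OFF against CEpiLC, the median over the sites turned from -0.27 to 0.06 log2, and the balance of 11 higher and 37 lower to 56 and 38, without SOX2-OFF replicate 2 over the sites of the other 5 lists. The number of sites was 188 with 6 low-SOX2 and 0 high-SOX2 lists required, 22 with no peak in any whole high-SOX2 list, 285 to 914 when replicates were left out, and 1862 without the shortest list at the next list length of 10930 peaks. All settings without SOX2-OFF replicate 2 alone were chosen after seeing the data. Whole lists gave 677 sites, of which 85 were the same, ranking by p-value 674 (581 the same) and lists of 2000 peaks 484 (328 the same).

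Sites where each protein followed β-catenin numbered 31 for SOX2, 36 for LEF1, 22 for TCF7L1 and 4 for TCF7L2 under the 6 and 0 rule. They numbered 38 for SOX2 and 109 for LEF1 at 2000 peaks, and 82 for LEF1, 51 for TCF7L1 and 49 for TCF7L2 in whole lists. With 1 replicate number left out, where 4 low and 0 high lists were required, they were 41 to 111 for SOX2, 46 to 120 for LEF1, 28 to 63 for TCF7L1 and 6 to 14 for TCF7L2. Counts at an exact p under 0.05 were 32 for LEF1, 23 for TCF7L1 and 26 for TCF7L2 in whole lists.

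The replicate number was also taken as a block, though no pairing of these samples is stated. Exact counts were then 31 for SOX2, 36 for LEF1, 22 for TCF7L1 and 4 for TCF7L2. The smallest p of that exact permutation test is 0.03125. In limma the block gave 7 sites higher for β-catenin, 2 lower for LEF1, and 7 higher and 10 lower for SOX2 in SOX2-OFF.

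With no centring, 0 sites were higher or lower for β-catenin, 0 higher or lower for LEF1 and 0 higher for SOX2. Centring on sites in all 12 lists gave 0 higher and 0 lower for LEF1, and a fold of at least 5 gave 2 lower for LEF1. Leaving out replicates gave 0 to 56 sites higher and 8 to 38 lower for β-catenin, 0 to 2 higher and 0 to 2 lower for LEF1, and 0 to 0 higher and 0 to 2 lower for SOX2.

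Within 50 and 250 bp, TCF matches were at 48.2% and 67.8% of sites, SOX at 12.02% and 56.4%, CDX at 0.742% and 10.4%, T at 15.7% and 33.4%, FOXH1 at 0.593% and 3.12%, and GATA at 9.94% and 36.2%. The octamer was at 1.34% within 50 bp. Promoters within 2500 bp held 9.50%. The causes of these changes were not tested.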
